A study of Gallus gallus with 8 samples.

Results

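Dense clusters of neighbouring open chromatin were examined in the embryonic chicken retinal pigment epithelium (RPE), the pigmented sheet behind the neural retina. ATAC-seq reads mark DNA that a transposase can reach, and the deposited table lists 89824 such open regions. A cluster was defined by position alone: the regions of chromosomes 1 to 28 were sorted by start, and every unbroken run of at least 6 regions with no gap above 2000 bp between neighbours was taken. The rule gave 587 clusters holding 4646 regions, 5.17% of all open regions and 5.54% of the 83873 on those chromosomes. No measured change entered the rule.

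Closely spaced open regions are a known feature of genes with many regulatory elements, where promoters, enhancers and other bound sites lie side by side, and they also arise where a peak caller splits a single broad open domain into pieces. In the chick, RPE of the early optic cup can turn into neural retina after the retina is removed, provided a fibroblast growth factor such as FGF2 is supplied, and this competence is lost as the RPE matures. The chicken genome has a few large macrochromosomes and many small, gene-rich microchromosomes, so the spacing of open regions differs between chromosomes for reasons of genome layout alone.

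The study had 4 groups of 2 libraries. E4 RPE and E5 RPE were taken from developing, uninjured eyes at embryonic days 4 and 5. For E4 6hPR+FGF2 and E5 6hPR+FGF2 the retina was surgically removed at these stages and heparin beads carrying FGF2 were placed in the eye cup. The RPE was taken 6 hours later, and whether the developing eyes were matched for those hours was not settled here. Each library pooled the RPE of 2 embryos with no genetic modification. The labels name White Leghorn eggs, whereas the study's methods name SPAFAS pathogen-free eggs for ATAC-seq, and the strain was not settled here. No ATAC-seq library of retina removal without FGF2 was used here, so injury and growth factor cannot be told apart. The libraries held 25233633 to 72884966 reads in open regions, of which 2225153 to 6003232 lay in clusters. At E5 depth went with treatment: E5 RPE held 72884966 and 60935269 reads and E5 6hPR+FGF2 25233633 and 33925829. E4 RPE held 34595299 and 59076807, and E4 6hPR+FGF2 64716670 and 59446882. An effect of depth on the contrasts with E5 6hPR+FGF2 was not tested. The deposited regions carry no gene names, so the tissue was not checked against marker genes.

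The clusters were small on the whole. The number of regions ran from 6 to 34 with a median of 7, 236 clusters had exactly 6 regions, 441 had 6 to 8, and 54 had 12 or more. Their span ran from 3470 to 79800 bp with a median of 12670 bp, and together they spanned 8.79 Mb, of which 5.80 Mb lay inside open regions. Within a cluster the median gap was 620 bp and the median share of the span inside open regions was 62.9%. Just outside the rule lay 477 runs of exactly 5 regions, with 2385 regions in all, and just inside it 103 gaps between 1901 and 2000 bp.

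**Figure D1:**
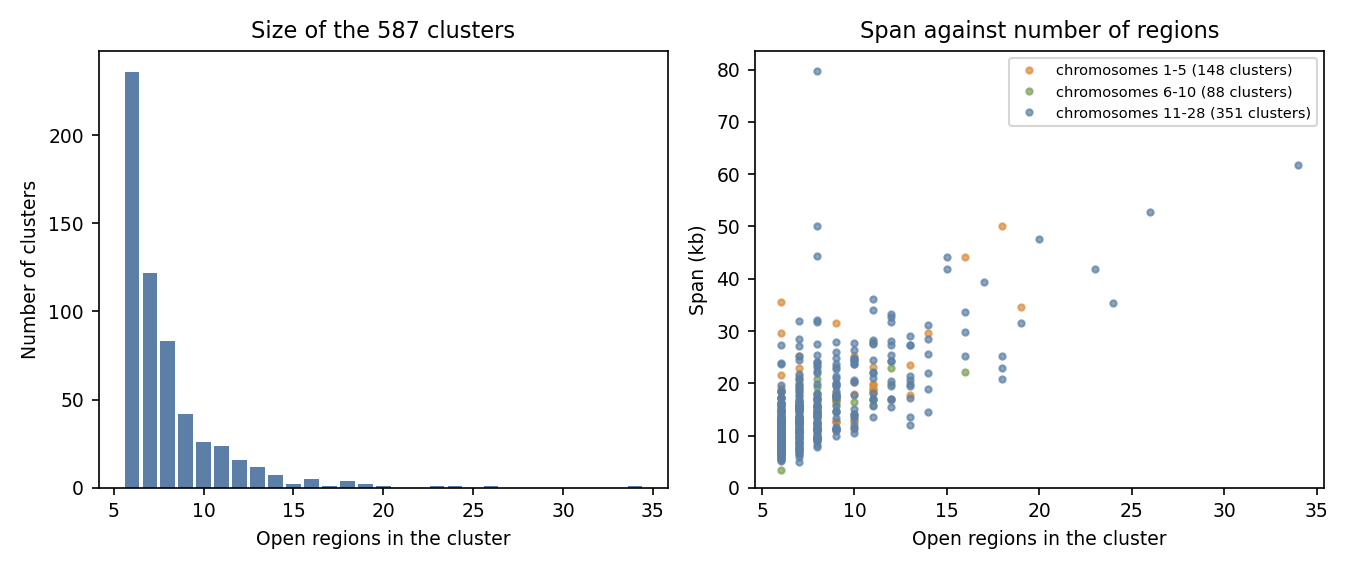
The left panel counts the 587 clusters by number of open regions (x axis), and the right panel plots the span in kb (y axis) against that number, each point a cluster coloured by chromosome class. Most clusters have 6 to 8 regions and span under 20 kb, while the cluster with the longest span, 79.8 kb, has only 8 regions.

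Clusters were far more frequent on small chromosomes. On macrochromosomes 1 to 5, 2.46% of the open regions were clustered, and on chromosomes 6 to 10, 4.33% of theirs. On microchromosomes 11 to 28 it was 12.03% of theirs. The median gap between any neighbouring regions was 3080 bp there, against 6390 bp on the macrochromosomes. Most clusters lay on microchromosomes, with 148 on chromosomes 1 to 5 and 88 on chromosomes 6 to 10. Chromosome 28 alone held 34 clusters, with 319 of its 1058 open regions in them (30.2%), whereas chromosome 1 held 28 clusters with 215 of 13381 regions (1.61%).

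Clustered regions were wider and stronger than the 79227 unclustered regions of the same chromosomes. Their median width was 750 bp against 530 bp, and 16.6% were wider than 2 kb against 6.34%. Their median normalized count, averaged over the 8 libraries, was 258 against 164, and per kilobase of width 361 against 323. In a typical cluster 1 region dominated: the strongest held a median of 43.2% of the cluster's signal and more than 50% of it in 202 clusters. That region lay at either end of the run in 175 clusters (29.8%), where the ends make up 27.4% of positions on average.

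The share of all signal that fell in clusters was higher in every treated library than in every developing library. The developing libraries had 7.97% and 8.05% (E4 RPE) and 8.24% and 8.17% (E5 RPE), and the treated ones 8.52% and 8.67% (E4 6hPR+FGF2) and 8.82% and 8.42% (E5 6hPR+FGF2). Without the single strongest region, chr16:1836420-1843820 (described further on), the developing libraries ran from 7.51% to 7.80% and the treated ones from 7.81% to 8.28%, so that the lowest treated library, E5 6hPR+FGF2 replicate 2, lay barely above the highest developing one. The median clustered region had 231 to 235 normalized counts in the developing libraries and 261 to 299 in the treated ones, and the median unclustered region 154 to 159 and 157 to 167. The regions nearly emptied in the treated libraries (defined with the chromosome 2 cluster further on) were then left out as well. This raised the highest developing library to 7.82%, above the lowest treated one at 7.81%. Over all 4 treated against all 4 developing libraries, the mean share was 8.61% ± 0.17 (SD, n = 4) against 8.11% ± 0.12 (SD, n = 4), with a two-sided exact permutation p of 0.029, the smallest that 70 arrangements can give. Exchanging libraries only within a stage gave an exact p of 0.056, the smallest of 36 arrangements. Without the strongest and the emptied regions the exact p was 0.057 over all libraries and 0.11 within stages. Most clusters lie on microchromosomes, where unclustered regions also had positive median log2 fold changes after treatment, 0.12 at E4 and 0.15 at E5. On chromosomes 1 to 5 these were -0.15 and -0.17. The share was not computed within chromosome classes, so the part played by that imbalance was not tested.

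Replicates were as close in clusters as elsewhere or closer. The median SD of the log2 values of the 2 replicates was 0.10 to 0.19 for single clustered regions, 0.12 to 0.21 for unclustered ones and 0.05 to 0.13 for means over a cluster.

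Treatment changed many clustered regions, mostly upwards, and stage changed few. Each contrast was tested with limma over all 89824 regions on log2(normalized count + 1), and a region was called where its p, adjusted by the method of Benjamini and Hochberg, did not exceed 0.05, and log2 fold changes are on that scale. Between E4 6hPR+FGF2 and E4 RPE, 967 clustered regions were called (20.8%), against 20.0% of all regions. Of these, 703 rose (15.1% of clustered regions, against 10.4% of all) and 264 fell (5.68%, against 9.53%). The median log2 fold change was 0.19 over clustered regions and -0.03 over all. Leaving out E4 RPE replicate 2, E4 6hPR+FGF2 replicate 1 or E4 6hPR+FGF2 replicate 2 gave 483, 581 and 353 calls in clusters.

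At E5 the same comparison called 1593 clustered regions (34.3%), against 37.5% of all regions. Here 1003 rose (21.6%, against 18.2% of all) and 590 fell (12.7%, against 19.3%), and the median log2 fold change was 0.11 over clustered regions and -0.04 over all. Leaving out E5 RPE replicate 1 or replicate 2 gave 845 and 946 calls. A log2 fold change of at least 1 in either direction was reached by 494 of the called regions at E4 (10.6% of clustered regions, against 12.4% of all) and by 787 at E5 (16.9%, against 23.9%), so large changes made up a smaller share in clusters. The total count of calls in clusters was thus near the background at both stages, and over all chromosomes a larger share rose and a smaller share fell. Scaling the libraries to equal totals gave 963 rises and 214 falls at E4 and 1112 and 511 at E5, and under that scaling the median over all regions moved from -0.03 to 0.08 at E4.

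Clusters were concentrated on microchromosomes, and there the shares of calls were close to those of unclustered regions. On chromosomes 11 to 28, 15.6% of clustered regions rose and 5.80% fell at E4, against 15.0% and 6.20% of unclustered ones, and at E5 22.7% rose and 11.9% fell, against 24.7% and 12.6%. On chromosomes 1 to 5 the shares differed more, with 15.1% rising and 5.596% falling at E4 against 7.98% and 12.1% outside clusters, and 19.8% and 14.4% at E5 against 15.3% and 23.8%. On chromosomes 6 to 10 they were 13.1% and 5.30% at E4 against 10.1% and 9.11%, and 19.8% and 13.6% at E5 against 17.6% and 20.0%.

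The median log2 fold change was higher in clusters than outside them in each chromosome class at E4, and at E5 on all but the microchromosomes. At E4 the median log2 fold change was 0.14 in clusters and -0.15 outside them on chromosomes 1 to 5, 0.15 and -0.05 on chromosomes 6 to 10, and 0.22 and 0.12 on microchromosomes. At E5 it was 0.01 and -0.17, 0.04 and -0.06, and 0.14 and 0.15, so the microchromosomes showed no excess. When regions were split into 4 width classes, the clustered median at E4 was 0.36 in the narrowest class, up to 380 bp, and -0.01 in the widest, over 1510 bp, and outside clusters it was 0.04 and -0.14. The clustered median lay above the unclustered one in every width class at both stages, and no test was run on it.

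Between the developing stages, 153 clustered regions were called (3.29%), against 4.16% of all regions. E5 RPE was higher than E4 RPE in 120 of them (2.58%, against 2.80% of all) and lower in 33 (0.71%, against 1.35%). This count rested on every library of the contrast: it fell to 98 with E4 RPE replicate 2 left out, to 2 with E5 RPE replicate 2 left out and to 0 with replicate 1 of E4 RPE or of E5 RPE left out, where limma left 540 and 509 clustered regions at an unadjusted p under 0.05. Quantile normalization gave 117 higher and 68 lower.

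Between the treated stages, 197 clustered regions were called (4.24%), against 4.60% of all. E5 6hPR+FGF2 was higher than E4 6hPR+FGF2 in 100 (2.15%, against 2.54%) and lower in 97 (2.09%, against 2.06%). The split depended on the scaling, with 68 higher and 139 lower under equal totals and 85 and 119 under quantile normalization. The count became 0 without E4 6hPR+FGF2 replicate 1 or without E5 6hPR+FGF2 replicate 2 (593 and 690 at an unadjusted limma p under 0.05), 323 without E5 6hPR+FGF2 replicate 1, and 66 and 64 without E5 RPE replicates 1 and 2.

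With limma, no clustered region passed the test for a stage difference in the treatment response. The interaction called 0 clustered regions with limma, 0 with edgeR and 13 with DESeq2 (0.407% of the clustered regions it tested). The backgrounds were 0.00223% of all regions with limma and 0.596% of the regions tested with DESeq2. An unadjusted limma p under 0.05 was found in 358 of the 4646 clustered regions and in 8269 of all 89824.

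Whether the regions of a cluster move together was asked next, against runs of the same number of consecutive regions outside clusters on the same chromosomes. For each cluster size all such runs were taken, and their shares were weighted by how many clusters had that size. They were not matched by chromosome, although most clusters lie on microchromosomes, and the part played by that imbalance was not tested. In E4 6hPR+FGF2 against E4 RPE, the log2 fold changes of all regions had the same sign in 110 clusters (18.7%), all positive in 89 and all negative in 21, against 7.96% of runs elsewhere. In E5 6hPR+FGF2 against E5 RPE this held for 80 clusters (13.6%), 55 up and 25 down, against 6.87%. In E5 RPE against E4 RPE it held for 89 clusters (15.2%) against 5.72%, and in E5 6hPR+FGF2 against E4 6hPR+FGF2 for 70 (11.9%) against 5.27%.

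A lean of single regions raises such shares by itself, and 65.0% of clustered regions had a positive log2 fold change at E4 after treatment against 46.2% of unclustered ones. The share of variance lying between clusters, which does not depend on the mean, was therefore taken too. It was 45.5% for treatment at E4, 33.4% for treatment at E5, 31.9% between the developing stages and 23.8% between the treated stages. Blocks of 6 consecutive regions elsewhere gave 19.1%, 16.4%, 11.4% and 12.7%. The treatment shares include the chromosome 18 and 2 clusters described further on, whose means at E4 were -4.28 and -3.93. Clusters so far from the rest raise the share, and it was not recomputed without them.

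Replicates of 1 group, which share stage and treatment, also differed cluster by cluster. The difference between the 2 replicates had the same sign over the whole cluster in 51 clusters of E4 RPE (8.69%, against 4.22% of runs elsewhere), 38 of E5 RPE (6.47% against 3.96%), 72 of E4 6hPR+FGF2 (12.3% against 5.17%) and 46 of E5 6hPR+FGF2 (7.84% against 3.78%). The variance share between clusters was 20.2% to 24.8% for these differences and 5.91% to 9.76% in blocks elsewhere. Neighbours thus moved together between replicates as well, and for the treated stages the variance share of the contrast, 23.8%, lay within that range.

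**Figure D2:**
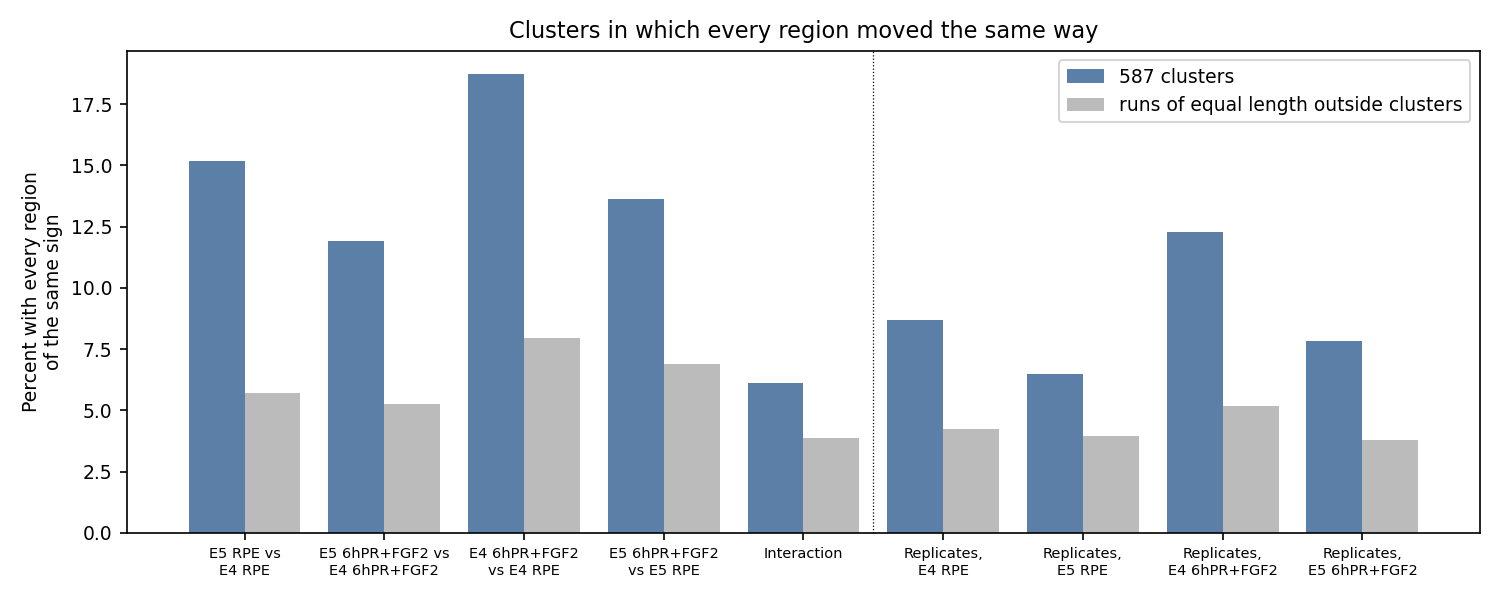
Bars give the percent of the 587 clusters (blue) and of runs of equal length outside clusters (grey) in which every region has a difference of the same sign, for the 4 contrasts and the interaction (left of the dotted line) and for the difference between the 2 replicates of each group (right). Clusters stand above runs elsewhere in all 9, replicate differences included, and E4 6hPR+FGF2 against E4 RPE is highest at 18.7%.

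The likeness of neighbours fell with the gap between them. Over all neighbouring pairs on chromosomes 1 to 28, Pearson's r of the log2 fold change for treatment at E4 was 0.56 over 4709 pairs at most 250 bp apart, 0.30 over 10110 pairs over 1000 and up to 2000 bp apart and 0.20 over 11983 pairs more than 20000 bp apart. For E5 RPE against E4 RPE it fell from 0.48 to 0.22 and 0.06, and for the replicate differences from between 0.21 and 0.37 at most 250 bp apart to between 0.04 and 0.07 beyond 20000 bp. Pairs share their libraries and close pairs share much of their sequence context, so these values are descriptions.

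**Figure D3:**
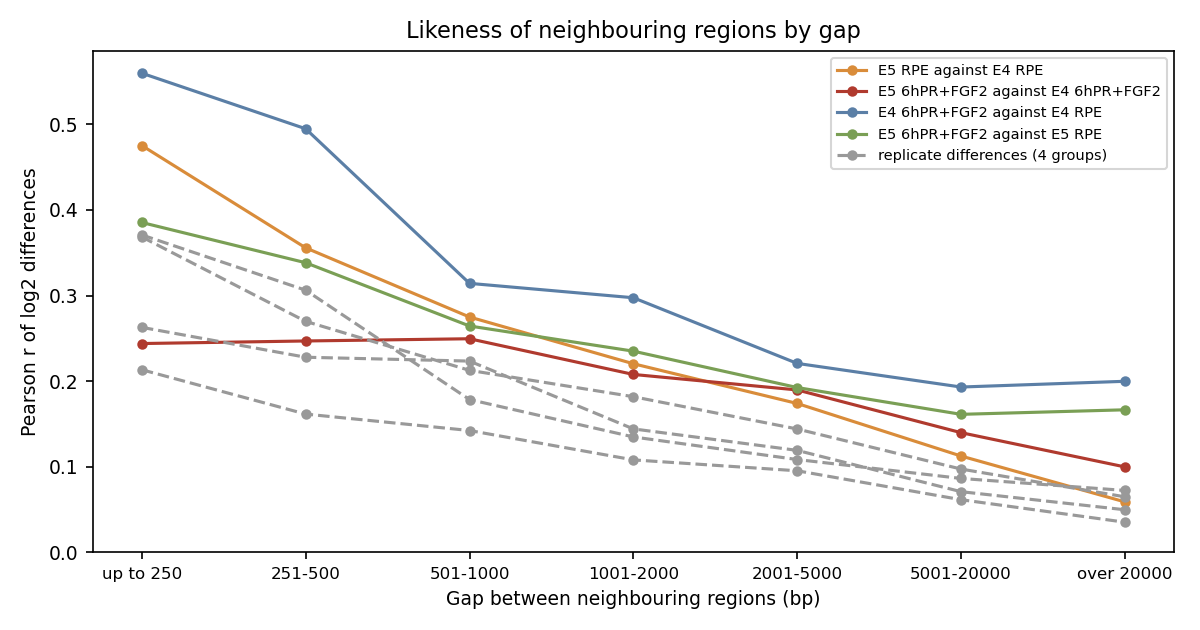
Pearson's r of log2 differences between neighbouring open regions (y axis) by the gap between them in bp (x axis, 7 bins); coloured lines are the 4 contrasts and dashed grey lines the replicate differences of the 4 groups. Every line is lower beyond 20000 bp than at the shortest gaps, and E5 6hPR+FGF2 against E4 6hPR+FGF2 stays level at 0.24 to 0.25 up to 1000 bp.

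Cluster by cluster, treatment left few without a call at E5 while stage left most without one. No region was called in 466 clusters between the developing stages, in 431 between the treated stages, in 149 for treatment at E4 and in 58 for treatment at E5, and 26 clusters had no call in any contrast. Regions called in opposite directions lay in the same cluster in 0, 5, 52 and 188 clusters. At least 50% of the regions rose after treatment in 42 clusters at E4 and 78 at E5, and fell in 11 and 35. Every region rose in 3 clusters at E5 and every region fell in 1, and at E4 no cluster had all its regions called in the same direction. These counts go with the shares of regions called in the 4 contrasts: 3.29%, 4.24%, 20.8% and 34.3% in clusters. Over all regions the shares were 4.16%, 4.60%, 20.0% and 37.5%. Runs elsewhere were not counted this way, so whether the counts are particular to clusters was not tested.

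Treatment moved most clusters the same way at both stages, whose comparisons share no library. The cluster mean was positive at both in 359 clusters, negative at both in 128 and opposite in 100, with r = 0.894 over the 587 clusters (0.870 without the 2 farthest). Of single regions, 559 rose at both stages (12.03% of clustered regions, against 8.90% of all), 213 fell at both (4.58%, against 7.64%) and 1 went opposite ways. Of the clustered regions that rose at E4, 79.5% also rose at E5, against 85.3% over all regions, and of those that fell 80.7% also fell, against 80.2%. Between the developing and the treated pair of stages, r of the cluster means was 0.597, with 39 regions higher (0.84%, against 0.71% of all) and 10 lower (0.22%, against 0.48%) at E5 in both.

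**Figure D4:**
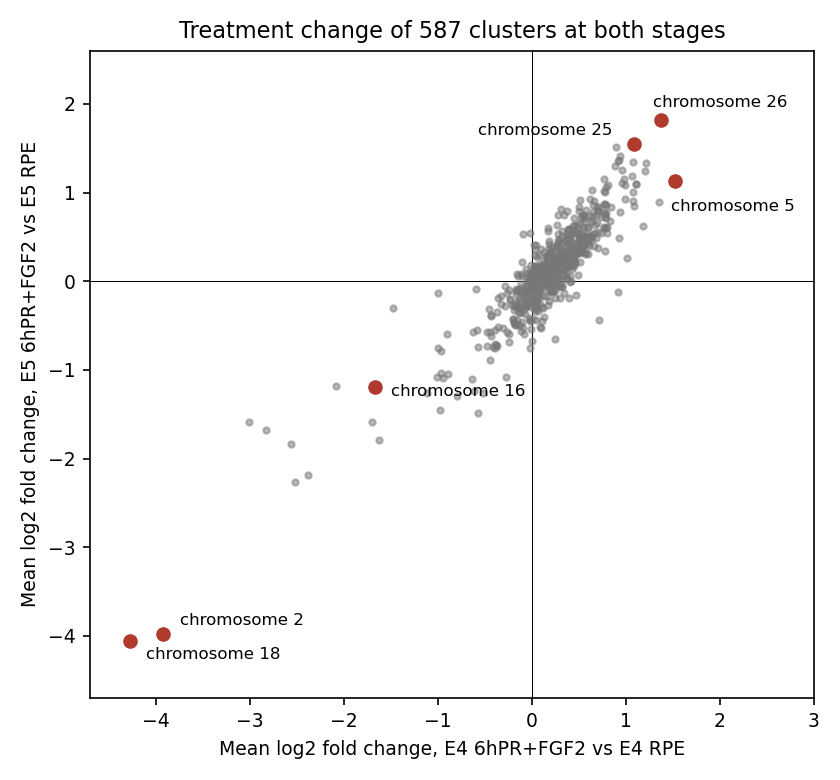
Each point is a cluster, with its mean log2 fold change after treatment at E4 (x axis) and at E5 (y axis); clusters described in the text are red and carry their chromosome. Most points lie along the diagonal between -1 and 1.5, and the clusters on chromosomes 18 and 2 lie far below at about -4 at both stages.

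The cluster with the second most regions, chr18:10981780-11034570 (26 regions, 52790 bp), fell far after treatment, keeping 16.1% of its summed signal at E4 and 20.4% at E5. Mean log2 fold changes were -4.28 (E4) and -4.06 (E5), with 23 and 24 regions called lower and 0 higher. They depended on the pseudocount, being -3.01 and -2.48 with a pseudocount of 10. Without the single region that kept its signal, described next, the other 25 summed to 9471 and 8102 normalized counts (E4 RPE), 5157 and 3944 (E5 RPE), 601 and 466 (E4 6hPR+FGF2), and 421 and 298 (E5 6hPR+FGF2). In those 25 all treated libraries lay far below all developing ones, keeping 6.07% at E4 and 7.90% at E5, and E5 RPE lay below E4 RPE. The mean log2 fold change between the developing stages was -0.87, with 1 region called.

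The remaining region of that cluster behaved differently from its neighbours. chr18:10995140-10996270 had 1126 and 1109 normalized counts (E4 RPE), 576 and 407 (E5 RPE), 1304 and 812 (E4 6hPR+FGF2), and 878 and 463 (E5 6hPR+FGF2). Developing and treated libraries overlapped, with log2 fold changes of -0.12 ± 0.31 (SE, limma adjusted p = 0.82) at E4 and 0.40 ± 0.31 (adjusted p = 0.33) at E5. It was singled out after its values were seen.

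The largest fall at E4 in the chromosome 18 cluster was at chr18:10992290-10993370, 1080 bp wide. It had 546 and 526 normalized counts (E4 RPE), 303 and 225 (E5 RPE), 2.76 and 0 (E4 6hPR+FGF2), and 3.67 and 1.52 (E5 6hPR+FGF2). A read was worth 0.69 to 1.84 normalized counts in the treated libraries, so these are a few reads each. It fell by 8.11 ± 0.61 on the log2 scale at E4 (limma adjusted p = 7.36e-05) and by 6.26 ± 0.61 at E5 (adjusted p = 0.00013). Both falls exceeded the spread between replicates many times over.

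Low values went on beyond the cluster on either side. The region just before it, chr18:10978720-10979230, had log2 fold changes of -4.39 at E4 and -4.33 at E5. Of the 4 regions that follow it, 3 lay between -7.75 and -6.60 at both stages and chr18:11048170-11048640 was at -0.96 and -1.40. In the cluster, 23 of the 26 regions were at or under -2 at both stages. With any library left out, 19 to 23 regions were called lower at E4 and 20 to 24 at E5, while a minimum mean of 50 normalized counts left 16 and 15.

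**Figure D5:**
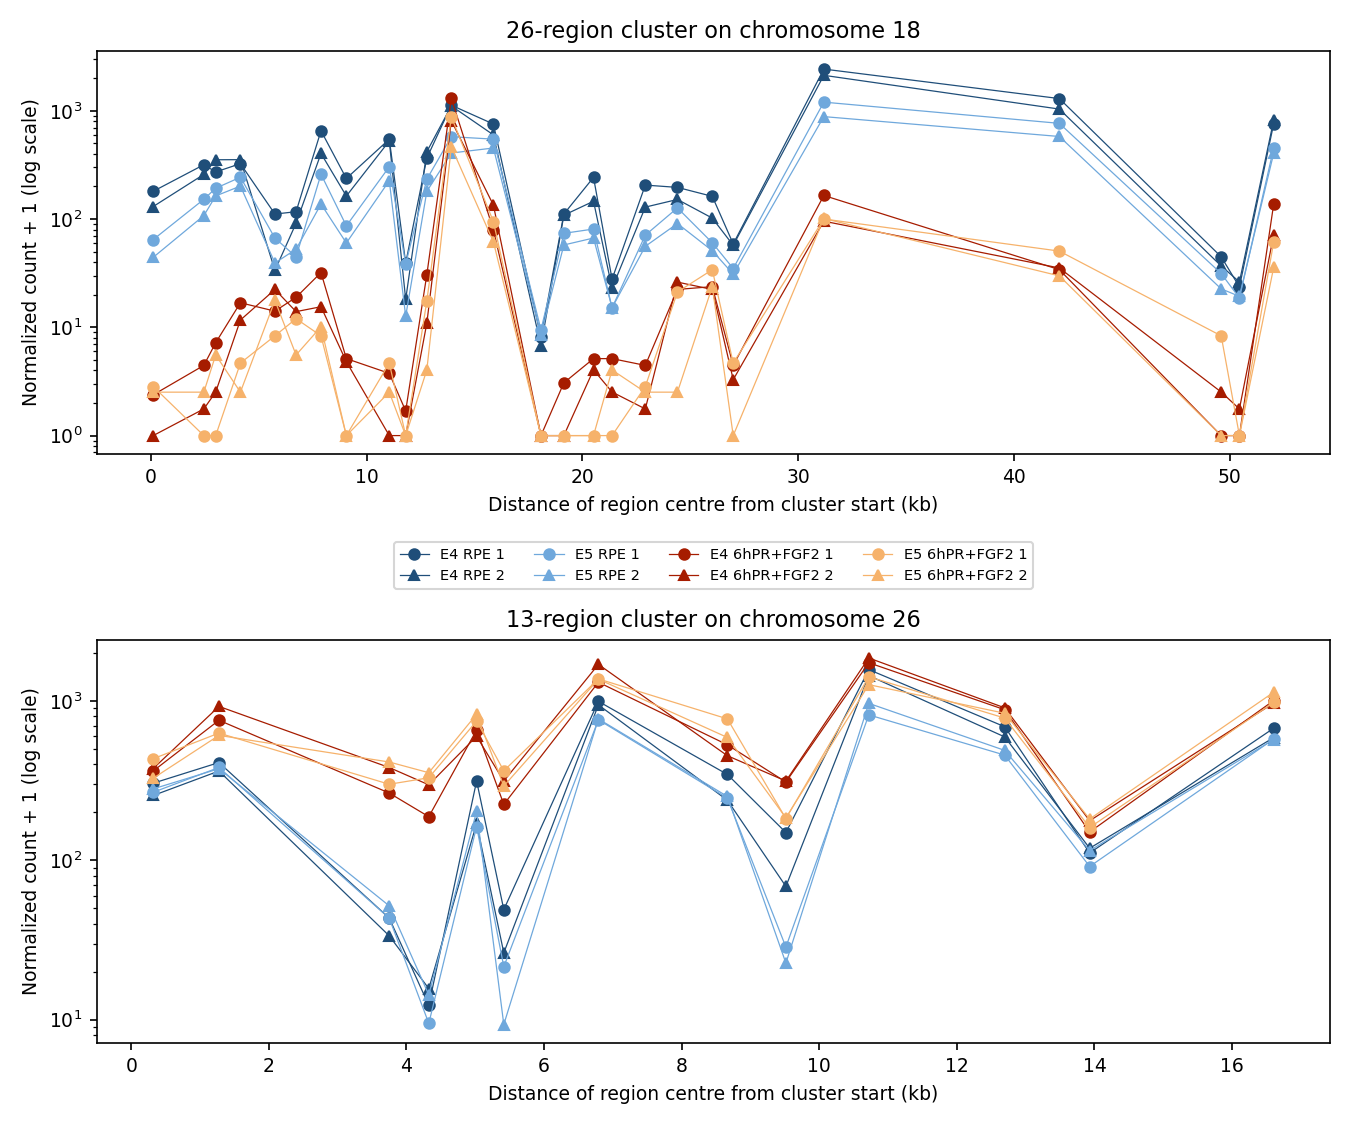
Normalized count plus 1 (log axis) of each region against the distance of its centre from the cluster start in kb, for the 26-region cluster on chromosome 18 (top) and the 13-region cluster on chromosome 26 (bottom), 1 line per library. On chromosome 18 the 4 treated libraries lie below the developing ones at every region but the one near 14 kb, and on chromosome 26 they lie above them everywhere but near 11 kb, with the widest separation in the narrow regions near 4 and 5 kb.

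A 6-region cluster on chromosome 2, chr2:105814840-105829570, fell about as far, with a mean log2 fold change of -3.93 at E4 and -3.98 at E5. A pseudocount of 10 gave -2.63 and -2.58. Which of the 2 clusters had the lower mean depended on the processing: at E5 the chromosome 2 cluster was lower with that pseudocount, under quantile normalization (-3.03 against -2.76) and without E5 6hPR+FGF2 replicate 1 (-4.32 against -4.25), and at E4 without E4 RPE replicate 1 (-4.26 against -4.12). At E4 4 of its regions were called lower and at E5 5. Region chr2:105829060-105829570 had 349 and 390 normalized counts (E4 RPE), 294 and 244 (E5 RPE) and 0 reads in all 4 treated libraries. Against a floor of 3 reads over each treated group, its fall was at least 340-fold at E4 and at least 108-fold at E5 (limma adjusted p = 1.58e-05 and 2.29e-05). Another region of the cluster, chr2:105822430-105823020, had 287, 417, 320 and 258 normalized counts in the developing libraries and 1 read in all in the treated ones. The widest region, of 6830 bp, was called at E5 only, at 1.97-fold lower. Both clusters hold regions of a set that kept under 2% of a developing signal of at least 100 normalized counts: 188 such regions were present in all and 11 in clusters, 7 of them in the chromosome 18 cluster. Why these regions held so few reads in the treated libraries was not tested. Without those 11 regions, 956 and 1582 clustered regions were called at E4 and E5.

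The largest rise at E5, and the second largest at E4, lay in chr26:4411930-4429050, with 13 regions over 17120 bp. Mean log2 fold changes were 1.38 (E4) and 1.82 (E5), with 10 and 12 regions called higher and 0 lower. Region chr26:4416150-4416360, only 210 bp wide, had 11.3 and 14.7 normalized counts (E4 RPE), 8.49 and 13.3 (E5 RPE), 187 and 297 (E4 6hPR+FGF2), and 329 and 354 (E5 6hPR+FGF2). It was nearly closed in all developing libraries and open in all treated ones, 18.6-fold higher at E4 and 31.3-fold at E5, with log2 fold changes of 4.09 ± 0.37 and 4.88 ± 0.37 (limma adjusted p = 0.00017 and 4.84e-05). This region was picked for its large rise, and the summed signal of the cluster rose 1.68-fold at E4 and 2.11-fold at E5. The rises were smaller in the broad regions, which were open throughout: the widest, of 2160 bp, had log2 fold changes of 0.62 and 0.84. At E4 only 5 regions were called where replicate 2 of E4 RPE or of E4 6hPR+FGF2 was left out.

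The largest rise at E4 belonged to chr5:54609770-54624190, with 8 regions. Its mean log2 fold change was 1.52 at E4, with 7 regions called higher, and 1.13 at E5, with 6. Its summed signal rose 2.985-fold at E4 and 2.514-fold at E5. Region chr5:54617550-54618230 had 70.7 and 85.6 normalized counts (E4 RPE), 72.9 and 75.8 (E5 RPE), 323 and 498 (E4 6hPR+FGF2), and 261 and 217 (E5 6hPR+FGF2). The treated libraries lay above the developing ones without overlap, and the rise was 2.35 ± 0.26 on the log2 scale at E4 (limma adjusted p = 0.00053) and 1.67 ± 0.26 at E5 (adjusted p = 0.0011). Its neighbour chr5:54618520-54620970 differed between the treated stages, with 1627 and 2364 normalized counts (E4 6hPR+FGF2) against 915 and 676 (E5 6hPR+FGF2). The log2 fold change was -1.32 ± 0.20 (limma adjusted p = 0.016). That call was not made when the contrast was fitted on its own 4 libraries, where limma passed no region at all. Without E4 6hPR+FGF2 replicate 2, the count at E4 was 4.

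The second highest mean at E5 was that of chr25:460690-468530, with 6 regions. It was 1.55 at E5, where 4 regions rose, and 1.09 at E4, where 3 rose. The summed signal of the cluster rose 1.675-fold at E5 and 1.293-fold at E4. Its narrow region chr25:465790-466030 had 65.1 and 40.0 normalized counts (E4 RPE), 30.4 and 38.3 (E5 RPE), 223 and 270 (E4 6hPR+FGF2), and 254 and 293 (E5 6hPR+FGF2). The groups did not overlap, and the region rose by 2.96 ± 0.30 on the log2 scale at E5 (limma adjusted p = 0.00014). A wide region of the same cluster, chr25:463170-464860, picked after its values were seen, was level, at 2444, 2615, 2876 and 2766 normalized counts in the developing libraries and 2714, 2400, 2563 and 2969 in the treated ones.

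The largest cluster, chr28:3125810-3187620, had 34 regions over 61810 bp. After treatment 12 regions rose at E4 and 10 at E5 and 0 fell, with a mean log2 fold change of 0.64 and 0.50. Of all regions 10.4% rose and 9.53% fell at E4, and 18.2% rose and 19.3% fell at E5. The summed signal of the cluster rose 1.15-fold at E4 and 1.16-fold at E5. Its widest region, chr28:3167970-3178320 (10350 bp), held 37.5% of the signal with 18171, 16931, 18029 and 17875 normalized counts in the developing libraries and 18953, 18237, 20172 and 21551 in the treated ones, which did not pass the test (adjusted p = 0.60 and 0.12). Region chr28:3128390-3128980 had 67.9, 107, 79.2 and 81.7 normalized counts in the developing libraries and 342, 561, 533 and 498 in the treated ones. It was 5.17-fold higher at E4, with no overlap between groups (limma adjusted p = 0.00077). The count at E4 was 6 without E4 RPE replicate 2 and 5 without E4 6hPR+FGF2 replicate 2.

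In the third largest cluster, chr21:6490450-6525770 with 24 regions, 5 rose at each stage, 0 fell at E4 and 1 fell at E5. Over all regions 10.4% rose and 9.53% fell at E4, and 18.2% rose and 19.3% fell at E5. Region chr21:6504490-6504730 rose most, from 87.7, 42.4, 58.0 and 83.3 normalized counts in the developing libraries to 270 and 244 (E4 6hPR+FGF2) and to 437 and 391 (E5 6hPR+FGF2). The one that fell, chr21:6513400-6516780, is 3380 bp wide and changed by -0.55 ± 0.12 on the log2 scale at E5 (limma adjusted p = 0.0068). Without E4 RPE replicate 2, 3 rose at E4, and without E5 RPE replicate 2 none fell at E5. Neither this cluster nor the largest had a region called between stages.

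Opposite changes side by side were most evident in chr11:17686180-17717730, with 19 regions. At E4 2 regions rose and 4 fell, and at E5 4 rose and 4 fell. The mean log2 fold change over regions was near 0 (0.11 and 0.10, the latter -0.01 without E5 6hPR+FGF2 replicate 1). The summed signal of the cluster was nevertheless 1.24-fold lower after treatment at E4 and 1.18-fold lower at E5, with no overlap of treated and developing libraries. Region chr11:17706190-17706400 rose from 22.6, 15.5, 18.4 and 19.2 normalized counts in the developing libraries to 80.1, 123, 127 and 92.7 in the treated ones (log2 fold change 2.34 ± 0.39 at E4, limma adjusted p = 0.0032). In the same cluster chr11:17696900-17703840, 6940 bp wide and singled out after its values were seen, fell from 8454, 10114, 9091 and 9126 to 6238, 6540, 6431 and 7091 (-0.53 ± 0.12, adjusted p = 0.013). Both changes held without overlap of the groups. The calls depended on single libraries: at E4 no fall was called without E4 RPE replicate 2 or E4 6hPR+FGF2 replicate 2, with 1 rise called, and at E5 none without E5 RPE replicate 1 or 2, with 2 and 3 rises called. Without E4 6hPR+FGF2 replicate 1, 1 rise and 2 falls were called at E4. At E5, 2 rises and 3 falls were called without E5 6hPR+FGF2 replicate 1, and 4 and 2 without replicate 2. Without E4 RPE replicate 1, 1 rise and 4 falls were called at E4.

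Stage changes that took in 50% of a cluster were found in 1 cluster per comparison. In chr7:11638510-11648090, 3 of 6 regions were higher in E5 RPE than in E4 RPE. The summed signal of the cluster was 1.68-fold higher in E5 RPE. Region chr7:11644480-11646280 had 655 and 794 normalized counts (E4 RPE), 1659 and 1596 (E5 RPE), 205 and 237 (E4 6hPR+FGF2), and 362 and 409 (E5 6hPR+FGF2). It was 2.25-fold higher at E5 in development (log2 fold change 1.17 ± 0.17, limma adjusted p = 0.011) and lower after treatment at both stages (-1.71 and -2.08, each ± 0.17). The count of 3 became 0 without E4 RPE replicate 1, E5 RPE replicate 1 or E5 RPE replicate 2.

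After treatment, chr1:41891550-41901770 had 3 of 6 regions lower at E5 than at E4. The summed signal of the cluster was 1.908-fold lower in E5 6hPR+FGF2 than in E4 6hPR+FGF2. Region chr1:41891550-41892350 had 164 and 165 normalized counts (E4 RPE), 119 and 137 (E5 RPE), 134 and 181 (E4 6hPR+FGF2), and 40.4 and 57.7 (E5 6hPR+FGF2). Only the E5 6hPR+FGF2 libraries stood apart, with a log2 fold change of -1.67 ± 0.28 against E4 6hPR+FGF2 (limma adjusted p = 0.019). The interaction of stage and treatment was not called with limma in this region. The count of 3 became 0 without E4 6hPR+FGF2 replicate 1 or E5 6hPR+FGF2 replicate 2, and 1 without E4 6hPR+FGF2 replicate 2. Fitted on its own 4 libraries with limma, the contrast called none there.

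The cluster with the longest span, chr18:1833480-1913280, covers 79800 bp with only 8 regions, the widest 27130 bp, and 96.9% of it lies inside open regions, and its signal was 906 to 1349 normalized counts in all in the developing libraries and 389 to 1225 in the treated ones. The groups overlap through E5 6hPR+FGF2 replicate 1, and 1 region was called lower at E4 and 2 at E5. These counts were 0 without either library of E5 RPE, the count at E4 was also 0 without any library of its contrast, and at E5 the count was 6 without E5 6hPR+FGF2 replicate 1 and 0 without replicate 2. In chr20:5485230-5529440, with 15 regions and no call, the cluster total was 9194 and 14233 (E4 RPE), 13365 and 11524 (E5 RPE), 11371 and 15407 (E4 6hPR+FGF2), and 19809 and 8992 (E5 6hPR+FGF2). There the replicates of E5 6hPR+FGF2 were the lowest and highest of all 8 libraries, and at E5 3 regions were called lower without its replicate 1 and 4 higher without its replicate 2.

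The strongest open region of the clusters, chr16:1836420-1843820, was looked at after its values were seen. Chicken chromosome 16 carries the ribosomal RNA genes and the major histocompatibility complex, sequences present in many or similar copies, for which read placement is uncertain. The region had 244286, 185324, 265849 and 203753 normalized counts in the developing libraries and 190681, 222497, 272222 and 340699 in the treated ones, and the groups overlapped (limma adjusted p = 0.88 at E4 and 0.12 at E5). Around it, 5 of the 8 regions of chr16:1797690-1847810 were called lower at E4 and 4 at E5. At the far end, chr16:1797690-1801100 fell from 15128, 11174, 19327 and 10570 to 1012, 1245, 2463 and 1567 (log2 fold change -3.53 ± 0.29 at E4, adjusted p = 0.00011).

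Gene names were available for 10 clusters, from the held part of the annotation that the study's own tables give for open regions and their summits. By position alone it named 6 clusters on chromosome 1: 2 near gga-mir-12207, and 1 each at MAPK8IP2, GATA3, TIAM1 and BCOR. At BCOR, which encodes a transcriptional corepressor that partners BCL6 and is needed for eye development in humans, the cluster chr1:113652480-113702640 has 18 regions, including the promoter. Of these 4 rose at E4 (10.4% of all regions rose), and 6 rose and 1 fell at E5 (18.2% and 19.3% of all). Its region chr1:113688330-113688550 had 83.4 and 45.7 normalized counts (E4 RPE), 33.95 and 60.0 (E5 RPE), 291 and 301 (E4 6hPR+FGF2), and 446 and 416 (E5 6hPR+FGF2). In that region all treated libraries lay well above all developing ones, 4.58-fold at E4 and 9.18-fold at E5 (limma adjusted p = 0.0020 and 0.00016). It does not stand for the cluster, whose summed signal was 1.07-fold higher after treatment at E4 and 1.07-fold lower at E5. At E4 the cluster had 1 call without E4 RPE replicate 1, E4 RPE replicate 2 or E4 6hPR+FGF2 replicate 2 and 2 calls without E4 6hPR+FGF2 replicate 1, and at E5 3 rises and 0 falls without E5 RPE replicate 1, and 4 rises and 2 falls without either library of E5 6hPR+FGF2.

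At GATA3, a zinc-finger transcription factor gene, the 6-region cluster chr1:4964390-4974130 takes in promoter, exon and intron. Its strongest region, chr1:4967190-4969180, had 1537, 1623, 1621 and 1526 normalized counts in the developing libraries and 2484, 2158, 2372 and 2506 in the treated ones. It was higher in all treated libraries, by 0.55 ± 0.13 at E4 and 0.63 ± 0.13 at E5 on the log2 scale (limma adjusted p = 0.014 and 0.0036). No other region of the cluster was called after treatment, and the call at E4 was lost without E4 RPE replicate 1 or 2 or E4 6hPR+FGF2 replicate 1. Over all regions, 10.4% rose and 9.53% fell at E4, and 18.2% rose and 19.3% fell at E5. Beside those shares, the counts that follow, in small clusters, are descriptions only. At MAPK8IP2, a scaffold of JNK signalling, 2 of 9 regions rose at E4 and 3 at E5. Near gga-mir-12207, 2 and 1 of 6 regions rose at E4 in the 2 clusters and 2 and 3 at E5, and near TIAM1, an activator of the GTPase RAC, 1 of 6 rose at E4 and 1 fell at E5. Each of these counts at MAPK8IP2, gga-mir-12207 and TIAM1 fell to 0 or 1 with at least 1 library of its contrast left out.

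The other 4 named clusters came into the held part of the summit table through a summit that changed between stages in these same libraries. Their stage values are therefore descriptions only. The treatment contrasts share those libraries, and their p-values do not allow for that pick. At ABHD2, which encodes a hydrolase, region chr10:13449780-13450890 had 161 and 181 normalized counts (E4 RPE), 683 and 638 (E5 RPE), 146 and 137 (E4 6hPR+FGF2), and 193 and 225 (E5 6hPR+FGF2). E5 RPE alone was high there, but limma did not call the interaction of stage and treatment in that region. In the same cluster chr10:13445520-13446110 moved the other way after treatment, from 92.1 ± 11.2 (SD, n = 2) in E5 RPE to 366 ± 115 (SD, n = 2) in E5 6hPR+FGF2 (1.95 ± 0.29 on the log2 scale, limma adjusted p = 0.00080).

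At SLC16A1, a monocarboxylate transporter gene, an intronic region, chr26:3616800-3618350, had 545 and 674 normalized counts (E4 RPE), 1656 and 1470 (E5 RPE), 388 and 457 (E4 6hPR+FGF2), and 1014 and 1541 (E5 6hPR+FGF2). Near NFIC, a nuclear factor I gene, chr28:1251010-1251400 had 52.3 and 58.7 (E4 RPE), 288 and 173 (E5 RPE), 55.9 and 80.1 (E4 6hPR+FGF2), and 281 and 410 (E5 6hPR+FGF2). Both were higher at E5 than at E4 with and without treatment, and neither was called after treatment. Near BMP7, a bone morphogenetic protein gene active in eye development, chr20:11675900-11678830 had 1571 and 1956 (E4 RPE), 2934 and 2537 (E5 RPE), 1108 and 1337 (E4 6hPR+FGF2), and 1576 and 1712 (E5 6hPR+FGF2). After treatment it fell by 0.73 ± 0.16 on the log2 scale at E5 (limma adjusted p = 0.0052), a call lost without E5 RPE replicate 1. E5 RPE, its highest group, is the baseline of that contrast and took part in the pick, so the fall is a description too.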

How the data were processed

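ATAC-seq signal was measured in 8 libraries, 2 for each of 4 groups taken from the labels. Per the study's methods, the authors trimmed reads (Trim Galore), aligned them to GRCg6a with Bowtie2 reporting up to 5 alignments per read, removed duplicates (Picard), called open regions in each sample with HMMRATAC and merged those within 10 bp (bedtools). Multiple alignments can raise signal in repeated sequence. The deposited values are a signal, read counts per region (featureCounts) divided by DESeq2 size factors. Dividing by the value of 1 read gave whole reads for 100% of values in every library, within 1e-06. Regions on other chromosomes (5951) were tested but could not be members. Coordinates are those deposited, and the sources do not say whether they count from 0 or 1. No GRCg6a genome was used here, so no sequence is shown.

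limma 3.58.1 (R 4.3.3) was fitted with the 4 groups on log2(value + 1) over all regions, with no filter. It was tested on simulated data. edgeR 4.0.16 and DESeq2 1.42.0 on recovered reads, other pseudocounts, filters, scalings, cluster definitions, a replicate block and single libraries left out were alternatives. Cluster means and shares have no test, except the share of all signal in clusters, whose exact permutation test was not among those planned. Named clusters were the 3 with most regions, the longest, the 2 highest and 2 lowest means per contrast with at least 50% of regions called in that direction, the one with most opposite calls, and the largest without a call; the clusters with gene names, the strongest region and the exclusion of nearly lost regions were chosen after seeing the data. From each cluster picked by its mean, the plan showed the called region with the largest log2 fold change in that direction. Such a region is the extreme of its cluster and does not stand for the others, and its p-value does not allow for that pick. The members and lists were chosen with earlier results of these data known. Labels name replicates without saying that they came from separate incubations, so p-values measure the spread between these pools. Counting error is small for a typical region and large for regions of a few reads.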

Additional observations from a re-analysis of the deposited data

How the results depend on the processing

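Counts of clustered regions called were most sensitive to single libraries. Leaving out each library in turn gave 0 to 188 (E5 RPE against E4 RPE, 153 with all), 0 to 323 (E5 6hPR+FGF2 against E4 6hPR+FGF2, 197), 353 to 1073 (treatment at E4, 967) and 845 to 1598 (treatment at E5, 1593); where such a removal left 1 library in a group, it was assumed to vary like the others. Where these counts fell most, those over all regions fell as well. DESeq2 gave 339 and 378 for the stage contrasts (7.44% and 8.29% of clustered regions tested, against 9.13% and 9.34% of all tested). It gave 13 for the interaction (0.407%, against 0.596%). The 4 libraries of the treated stages alone gave 0 with limma in clusters (868 at an unadjusted p under 0.05) and 0 over all regions. With the replicate block the stage contrasts gave 297 and 366 (6.39% and 7.88% of clustered regions, against 8.14% and 9.01% of all), and no other call count moved by over 1.5 times. The labels do not say whether libraries with the same replicate number share a batch. Replicate differences correlated between groups with r from -0.21 to 0.33, the highest between E4 RPE and E4 6hPR+FGF2. What they share was not tested. A gap limit of 1000 bp gave 190 clusters with 1384 regions, 3000 bp gave 1081 with 9107, and at least 8 regions gave 229 with 2376. Of those 229 clusters, 6.99% moved in a single direction between the treated stages, against 2.23% of runs elsewhere. After treatment at E5 the shares were 6.99% and 3.33%. Of the other values recomputed, 126 main and 155 further ones were counted as unmoved. The 17 that moved were means of named clusters, held to a narrower limit than 1.5 times. For example, the chromosome 7 mean between the developing stages counted as moved from 0.66 to 0.63 with a pseudocount of 10. A single mean changed sign within the replicate spread, that of the chromosome 11 cluster after treatment at E5, from 0.10 to -0.01 without E5 6hPR+FGF2 replicate 1. A pseudocount of 10 moved the means of the chromosome 18 and 2 clusters to -3.01 and -2.63 at E4 and to -2.48 and -2.58 at E5, which changed their order at E5. With 2 libraries a group, small changes and low-count regions are not resolved.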
